A study of Mus musculus with 9 samples.

Results

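The genes described here make, break down and sense prostaglandins. They are the 9 genes Ptgs1, Ptgs2, Ptges, Ptgis, Pla2g4a, Hpgd, Ptger2, Ptger4 and Ptgfr, found by symbol among the 24062 genes of the count table. They were read in C57BL/6 mouse embryonic fibroblasts on day 10 after lentiviral delivery of p21 (3 libraries), of p16 (3 libraries) or of an empty vector (3 control libraries). p21 and p16 are inhibitors of cyclin-dependent kinases that hold cells in senescent arrest. The labels call the control cells senescent too, although the sample titles use that word for the p21 and p16 libraries only. Whether the replicates were separate cultures or embryos, and which promoter drove the transgenes, is not given in the sources used here, so p-values measure the spread between these libraries, which may be technical in part.

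Prostaglandins are lipid signals made from arachidonic acid. The cytosolic phospholipase A2 encoded by Pla2g4a frees arachidonic acid from membranes, and the cyclooxygenases encoded by Ptgs1 and Ptgs2 turn it into the common precursor, prostaglandin H2. Terminal synthases then make prostaglandin E2 (microsomal synthase, Ptges) or prostacyclin (Ptgis), Hpgd starts their inactivation, and cells sense them through G protein-coupled receptors such as those encoded by Ptger2, Ptger4 and Ptgfr. Fibroblasts are a known source of prostaglandin E2, and Ptgs2 is known as the inducible cyclooxygenase of inflammation, while Ptgs1 is expressed in many tissues without a stimulus.

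The promoters of both cyclooxygenase genes are shown because the isoenzymes catalyse the same step but their transcripts were present at very different levels in these cells. The sequences are those of RefSeq on build GRCm38.p6, 250 bases before to 50 bases after the annotated start, 5′ to 3′ on the plus strand, for Ptgs2 at chr1:150099781-150100080 and for Ptgs1 at chr2:36230176-36230475. Capitals mark matches to any of 7 searched motifs.
Ptgs2: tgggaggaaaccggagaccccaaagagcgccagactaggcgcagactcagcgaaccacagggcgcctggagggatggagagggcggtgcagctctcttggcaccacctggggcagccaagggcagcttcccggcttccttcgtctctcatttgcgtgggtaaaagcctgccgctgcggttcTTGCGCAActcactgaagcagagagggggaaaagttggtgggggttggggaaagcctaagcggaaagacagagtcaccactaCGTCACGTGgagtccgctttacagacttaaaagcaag
Ptgs1: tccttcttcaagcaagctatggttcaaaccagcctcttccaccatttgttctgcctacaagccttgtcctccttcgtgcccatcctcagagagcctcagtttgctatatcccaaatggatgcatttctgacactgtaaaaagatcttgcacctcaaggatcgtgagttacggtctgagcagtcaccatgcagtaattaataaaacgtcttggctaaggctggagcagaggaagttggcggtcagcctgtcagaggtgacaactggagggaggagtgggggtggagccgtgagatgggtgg
The Ptgs2 window held a C/EBP match (TTNNGCAA), which 10.8% of the 32851 promoters searched on both strands also held. Just after the annotated start it held the core of the cAMP response element (TGACG, in 20.8% of promoters) overlapping an E-box (CACGTG, in 7.15%). The Ptgs1 window held none of these letters, and neither window held the palindromic cAMP response element (TGACGTCA, in 1.79%), an NF-kB motif (GGG, any 2 bases, then TTTCC, in 1.63%), AP-1 (TGANTCA, in 7.81%) or TATAAA (in 13.6%). These matches are descriptions of the letters, not of binding. Ptgs2 and Pla2g4a are neighbours on chromosome 1, separated by 138740 bases with 0 protein-coding genes between them (GENCODE M21, GRCm38).

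The 9 libraries held 56864342 to 76054820 counts each. Cdkn1a, which encodes p21, was 3.09-fold higher in p21 than in control cells, and Cdkn2a, which encodes p16, was 16.1-fold higher in p16 than in control cells (edgeR, adjusted p = 8.05e-06 and 6.8e-07). The summed CPM of 10 fibroblast markers was 30415 to 33888 in p21, 31501 to 36190.3 in p16 and 25828 to 37048 in control libraries. Its largest parts were Col1a1 and Col1a2 (up to 17300 and 10900 CPM), while Dcn and Lum reached at most 5.22 and 1.56 CPM. Of the 10, edgeR called 2 higher and 1 lower in p21 than in control cells. Replicate 3 of each group stands apart in sex-linked transcripts, with Xist at 158, 262 and 397 CPM in p21, p16 and control replicate 3 and at no more than 1.34 CPM in the other libraries. The Y-linked Ddx3y was at 10.8, 1.26 and 1.10 CPM in these replicates 3 and at 50.1 to 68.5 CPM in the other libraries. Replicate 3 thus differed in the sex of its cells, and p21 replicate 3 lay between the others in Ddx3y. Levels are given as CPM, counts scaled to the library total with TMM factors, and in comparisons between genes as CPM per kb of exon.

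Per exon length, Ptgs2 was the most abundant of the 9 genes in every library. It stood at 220 ± 26.7 CPM per kb in p21, 204 ± 41.9 in p16 and 159 ± 40.9 in control cells (SD, n = 3). Next came Pla2g4a at 27.3 ± 1.96 CPM per kb in p21, 25.4 ± 1.87 in p16 and 22.4 ± 1.35 in control cells. Ptgis and Ptges followed in an order that depended on the group: Ptges was at 8.72 ± 0.241 CPM per kb and Ptgis at 6.49 ± 1.82 in p21 cells, while in control cells Ptges was at 7.73 ± 0.279 and Ptgis at 10.7 ± 2.2. Ptgs1, at 5.81 ± 1.24 in p21, 6.55 ± 0.995 in p16 and 4.53 ± 0.699 CPM per kb in control cells, lay close below them and overlapped Ptgis in p21 cells. The receptors were lower: Ptger4 was at 1.2 ± 0.209, 1.32 ± 0.161 and 1.07 ± 0.151 CPM per kb in p21, p16 and control cells, with Ptgfr and Hpgd below it and overlapping each other. Ptger2 was almost absent, with 4, 4 and 4 counts in the p21 libraries, 2, 0 and 4 in the p16 libraries and 0, 2 and 6 in the control libraries. It did not pass the filter on low counts, so 8 of the 9 genes were tested.

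**Figure D1:**
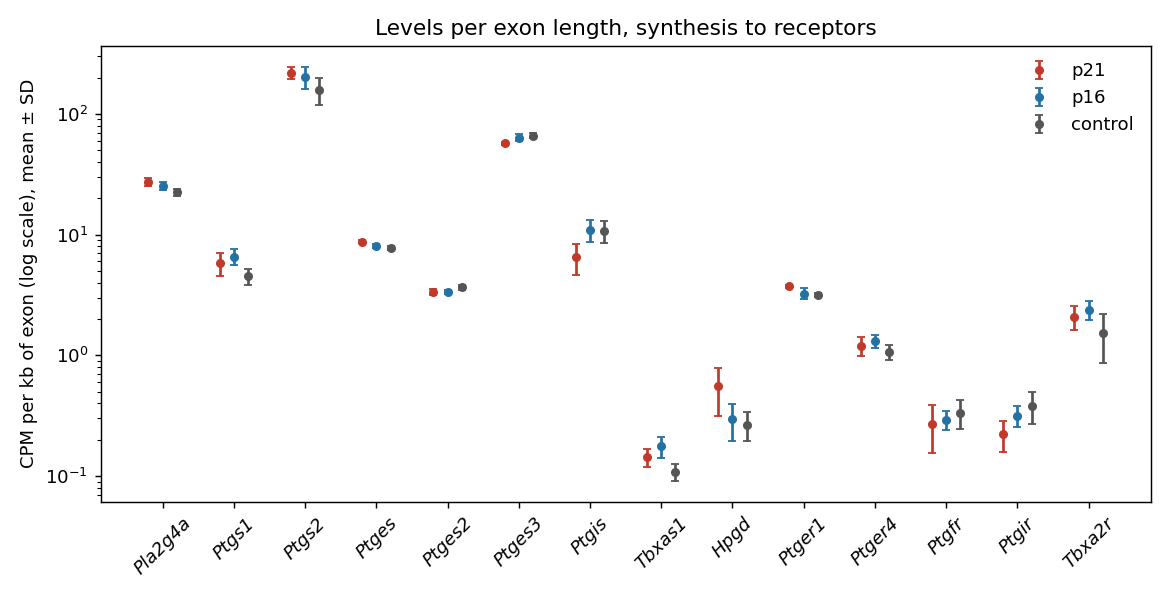
Mean level per kilobase of exon (CPM per kb, log axis, bars SD over 3 libraries) of the prostaglandin genes and related synthases and receptors in p21, p16 and control cells. Ptgs2 lies above every other gene shown, at 220, 204 and 159 CPM per kb in p21, p16 and control cells, and Tbxas1, Hpgd, Ptgfr and Ptgir lie lowest.

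The first comparison asked what p21 did to these genes relative to the empty vector. In p21 cells the phospholipase gene Pla2g4a, the prostaglandin E2 synthase gene Ptges and the inactivating enzyme gene Hpgd rose, and the prostacyclin synthase gene Ptgis fell. These 4 of 8 tested genes compare with 39.9% of all 14572 genes tested in that comparison (edgeR's quasi-likelihood test, adjusted p under 0.05), so the share called is close to the background. In each direction it was 3 higher, against 19.3% of all genes, and 1 lower, against 20.7%. An unadjusted p under 0.05 was found for 5 of the 8, against 48.6% of all genes. The median log2 fold change of the 8 genes was 0.229, against -0.0113 over all genes tested. The groups' libraries did not overlap for 2 of the 8 genes (Ptges and Pla2g4a), against 49.8% of all genes.

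The same question for p16 gave no call. Of the 8 genes 0 passed with edgeR, against 7.22% of all genes (3.57% higher, 3.65% lower). An unadjusted p under 0.05 was found for 2 (Ptgs1 and Pla2g4a), against 24.6% of all genes. DESeq2 called 1 (Ptgs1), against 1808 of all 14572 genes. The libraries did not overlap for 1 (Ptgs1), against 28.7%. Between p21 and p16 cells 0 of 8 passed with edgeR, against 12.8% of all genes (6.19% higher, 6.64% lower). An unadjusted p under 0.05 was found for 3 (Ptgis, Ptges and Hpgd), against 28.8%. DESeq2 called 1 (Ptgis), against 2580 of all 14572 genes. The libraries did not overlap for 2 (Ptges and Ptgis), against 36.0%. For these comparisons the deviations of same-numbered libraries from their group means correlated above the limit of 0.1 set for pairing. However, p16 replicate 2 was closer to control replicate 1 (0.3) than to control replicate 2 (0.11). This pairing is not in the labels and was inferred from the same data that the block then tested. A fit of all 9 libraries with the replicate number as a block called 4 of 8 genes between p16 and control cells, against 17.0% of all genes. Between p21 and p16 cells it called 2 of 8, against 24.0%. Between p21 and control cells, where the numbers do not meet that condition, it called 6 of 8, against 49.7% of all genes. The p21 and p16 comparisons share their control libraries.

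**Figure D2:**
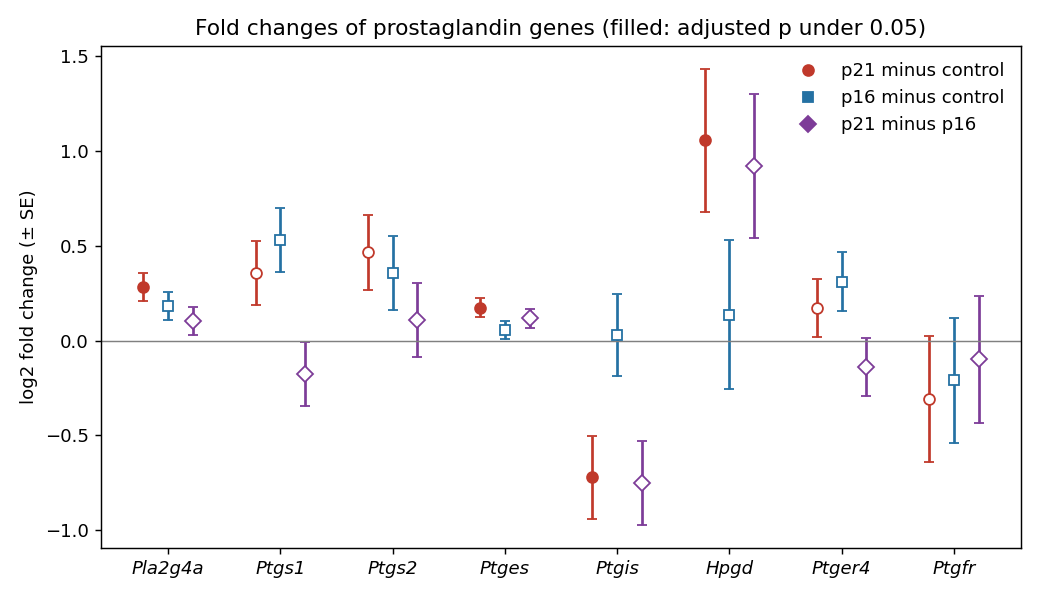
Log2 fold change (vertical axis, bars SE) of the 8 tested prostaglandin genes for the p21 to control (circles), p16 to control (squares) and p21 to p16 (diamonds) differences, with filled symbols where the adjusted p was under 0.05. Pla2g4a, Ptges and Hpgd are filled above 0 and Ptgis below 0 among the circles, and no symbol is filled in the other comparisons.

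Pla2g4a (chromosome 1, 149829618 to 149961290, minus strand) controls the supply of substrate. It had 174, 187 and 162 CPM in replicates 1, 2 and 3 of p21 cells and 165, 173 and 149 CPM in those of p16 cells, against 152, 143 and 134 CPM in control cells. All 3 p21 libraries lay above all control libraries, and p16 replicate 3 lay within the control range. The gene was 1.22-fold higher in p21 than in control cells (log2 difference 0.28 ± 0.0736 SE, edgeR adjusted p = 0.0129), a call kept in each of 14 alternative settings (adjusted p from 0.000237 to 0.0453). In p16 cells it was at 1.13-fold of control (adjusted p = 0.165). With the replicate block that difference passed (adjusted p = 0.0209, range over the alternatives 0.0151 to 0.398). Between p21 and p16 cells the log2 difference was 0.10 ± 0.0736 SE (adjusted p = 0.4).

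Ptgs2 (chromosome 1, 150100031 to 150108227, plus strand) had 1063, 1088 and 865 CPM in p21 cells and 1018, 1068 and 713 CPM in p16 cells, against 915, 729 and 541 CPM in control cells. Replicate 3 was the lowest of its group in all 3 groups, and the groups overlapped. Its mean was 1.38-fold that of control in p21 cells (log2 0.47 ± 0.197 SE, edgeR adjusted p = 0.0875) and 1.28-fold in p16 cells (log2 0.36 ± 0.197 SE, adjusted p = 0.301), neither of which passed. With a term for replicate 3 the p21 difference passed (adjusted p = 0.000437, range over 14 alternatives 0.000437 to 0.225), as it did without control replicate 1 (adjusted p = 0.021). The p16 difference passed with the replicate block (log2 0.36 ± 0.08 SE, adjusted p = 0.0125, range over the alternatives 0.0114 to 0.586). Between p21 and p16 cells the log2 difference was 0.11 ± 0.197 SE (adjusted p = 0.762).

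Ptgs1 (chromosome 2, 36230426 to 36252272, plus strand), the cyclooxygenase gene of platelets, stomach and many other tissues, had 21.4, 18.4 and 27.8 CPM in p21 cells and 24.6, 22.1 and 29.7 CPM in p16 cells, against 18.1, 14.7 and 20.0 CPM in control cells. Here replicate 3 was the highest of its group in all 3 groups, the reverse of Ptgs2. All p16 libraries lay above all control libraries, while p21 replicate 2 lay within the control range. The p16 mean was 1.45-fold that of control (log2 0.53 ± 0.168 SE, edgeR adjusted p = 0.0877), which passed with the replicate block (adjusted p = 0.000657, range over 14 alternatives 0.000657 to 0.231). The p21 mean was 1.28-fold that of control (log2 0.36 ± 0.168 SE, adjusted p = 0.12), which passed with a term for replicate 3 (adjusted p = 0.00709, range 0.000911 to 0.387). Between p21 and p16 cells the log2 difference was -0.18 ± 0.167 SE (adjusted p = 0.533). The Ptgs2 over Ptgs1 ratios within libraries, per kb of exon, were 42.1, 50.1 and 26.4 in p21, 35.1, 41.0 and 20.4 in p16 and 42.8, 42.2 and 22.9 in control libraries. That ratio was lowest in replicate 3 of every group, and the groups overlapped. An exact permutation test of the log2 ratios, which for 3 against 3 libraries can reach no p below 0.1, found no difference. It gave 0.7 for p21 and 0.5 for p16 against control, and 0.5 for p21 against p16 cells.

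**Figure D3:**
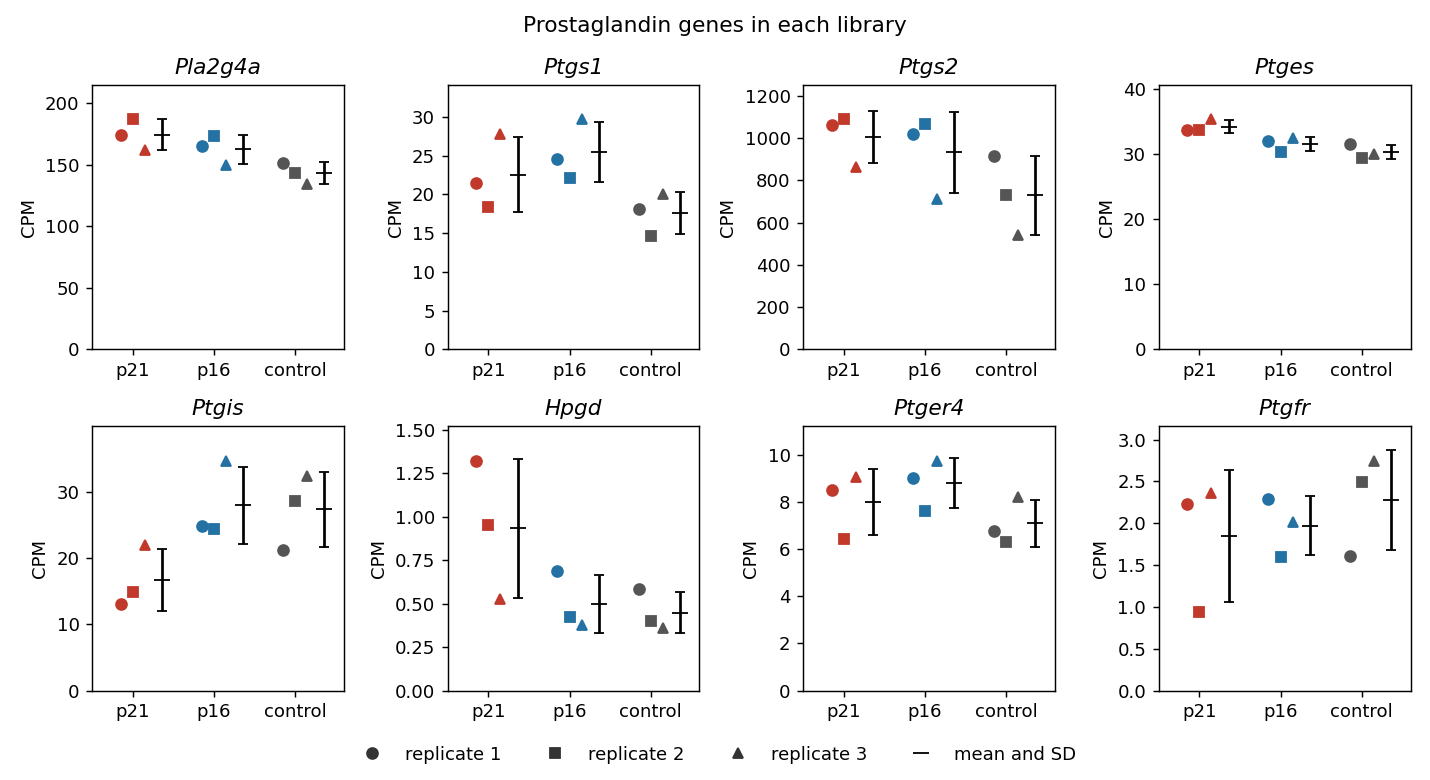
CPM (vertical axes, from 0) of the 8 tested prostaglandin genes in every library, with p21, p16 and control cells from left to right, a marker shape per replicate number, and the mean and SD over 3 libraries beside them. Pla2g4a and Ptges are higher in all p21 libraries than in any control library, Ptgis is lower in p21 replicates 1 and 2, and replicate 3 (triangles) is lowest for Ptgs2 and highest for Ptgs1 and Ptgis in each group.

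Ptges (chromosome 2, 30889471 to 30929863, minus strand) encodes the inducible microsomal prostaglandin E synthase. It had 33.7, 33.7 and 35.4 CPM in p21 cells and 32.0, 30.3 and 32.4 CPM in p16 cells, against 31.6, 29.5 and 30.01 CPM in control cells. All p21 libraries lay above all libraries of both other groups, by a small margin. The gene was 1.13-fold higher in p21 than in control cells (log2 0.17 ± 0.0491 SE, edgeR adjusted p = 0.0187). Leaving out control replicate 2 (adjusted p = 0.0717), control replicate 3 (0.0525) or p21 replicate 3 (0.0579) ended this call. So did a fit of replicates 1 and 2 of each group only (0.114) and library totals as the only scaling (0.0619). The range over 14 alternatives was 0.00722 to 0.114. In p16 cells Ptges was at 1.04-fold of control (adjusted p = 0.536), and it was at 1.09-fold in p21 relative to p16 cells (adjusted p = 0.146).

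Ptgis (chromosome 2, 167191805 to 167240604, minus strand) encodes prostacyclin synthase, an enzyme best known from endothelium and smooth muscle. It had 13.1, 14.9 and 21.95 CPM in p21 cells and 24.8, 24.4 and 34.7 CPM in p16 cells, against 21.3, 28.6 and 32.4 CPM in control cells. All p21 libraries lay below all p16 libraries, and p21 replicate 3 lay just above control replicate 1. The gene was 1.65-fold lower in p21 than in control cells (log2 -0.72 ± 0.22 SE, edgeR adjusted p = 0.0263). It missed the threshold on omitting control replicate 2 (adjusted p = 0.0741), control replicate 3 (0.0821), p21 replicate 1 (0.105) or p21 replicate 2 (0.0895), with a range over 14 alternatives of 5.73e-05 to 0.105. Relative to p16 cells the p21 mean was 1.68-fold lower and just missed the threshold (log2 -0.75 ± 0.22 SE, adjusted p = 0.052). With the replicate block it passed (log2 -0.76 ± 0.0862 SE, adjusted p = 0.000249), as it did without p21 replicate 3 (adjusted p = 0.0175; range over the alternatives 0.000249 to 0.188). In p16 cells Ptgis was at 1.02-fold of control (log2 0.03 ± 0.217 SE, adjusted p = 0.95).

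The ratio of Ptges to Ptgis within each library is given as a description, since it was formed after their opposite directions in p21 cells were known. The exact permutation test could again reach no p below 0.1. It gave 0.1 for p21 against control and against p16 cells, and 0.9 for p16 against control. Adjusted over the tests of both ratios, these were 0.3, 0.3 and 0.9. Per kb of exon, Ptges over Ptgis was 1.68, 1.48 and 1.05 in p21 libraries and 0.842, 0.811 and 0.61 in p16 libraries, against 0.97, 0.674 and 0.606 in control libraries. The p21 ratios were above 1 and the others below 1. On the log2 scale the mean ratio was 1.88-fold that of control in p21 cells and 1.02-fold in p16 cells. Markers of the cell types in which Ptgis is best known were read beside it. Of 9 tested endothelial markers, 1 was called higher and 1 lower in p21 than in control cells, against 19.3% and 20.7% of all genes. The summed CPM of all 11 listed was 15.3 to 17.2 in p21, 14.9 to 18.6 in p16 and 15.2 to 15.9 in control libraries. Of 11 smooth muscle and pericyte markers, 7 were called higher in p21 cells and 4 in p16 cells relative to control, against 19.3% and 3.57% of all genes. The other 4 were not called in p21 cells. Their summed CPM, over all 11, was 11928 to 15083 in p21, 11538 to 12197 in p16 and 9816 to 11078 in control libraries. Its largest parts were the contractile genes Acta2, Tagln and Cnn1 (up to 8510, 4880 and 923 CPM). Rgs5, Abcc9 and Kcnj8 reached at most 16.6, 3.68 and 2.22 CPM. The sum therefore does not tell how many smooth muscle cells or pericytes were present. In bulk RNA, fewer cells that express a gene and less RNA per cell cannot be told apart.

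Hpgd (chromosome 8, 56294585 to 56321043, plus strand) encodes the dehydrogenase that begins prostaglandin inactivation. It was near the detection limit, with 96, 65 and 30 counts (1.32, 0.949 and 0.525 CPM) in p21 cells and 0.688, 0.425 and 0.378 CPM in p16 cells, against 45, 29 and 26 counts (0.587, 0.398 and 0.363 CPM) in control cells. Replicates 1 and 2 of p21 cells lay above all other libraries, and p21 replicate 3 lay within the control range. The gene was 2.08-fold higher in p21 than in control cells (log2 1.06 ± 0.378 SE, edgeR adjusted p = 0.0489). It did not survive omission of control replicate 2 (adjusted p = 0.131), control replicate 3 (0.127), p21 replicate 1 (0.199) or p21 replicate 2 (0.101), nor scaling by library totals alone (0.0535) or a fit of the 2 groups alone (0.0646; range over 14 alternatives 0.00687 to 0.199). Relative to p16 cells it was at 1.89-fold (adjusted p = 0.141) and passed with the replicate block (adjusted p = 0.0292, range 0.0292 to 0.45). Of 16 tested macrophage markers, 12 were higher in p21 than in control cells, against 19.3% of all genes. The summed CPM of all 17 listed markers was 29.9, 39.1 and 53.6 in p21 replicates 1, 2 and 3, 11.96 to 17.5 in p16 and 14.96 to 17.9 in control libraries, so that p21 replicate 3 had the highest sum and the lowest Hpgd of its group. The part of these cells in the Hpgd result was not tested.

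Ptger4 (chromosome 15, 5206661 to 5244187, minus strand) encodes a prostaglandin E2 receptor that raises cAMP, and it was the most abundant of the 3 receptor genes. It had 8.48, 6.43 and 9.07 CPM in p21 cells and 9.01, 7.63 and 9.74 CPM in p16 cells, against 6.75, 6.29 and 8.21 CPM in control cells. The groups overlapped, and replicate 2 was the lowest and replicate 3 the highest in each. The means were 1.13-fold of control in p21 cells (log2 0.17 ± 0.154 SE, edgeR adjusted p = 0.402) and 1.24-fold in p16 cells (log2 0.31 ± 0.154 SE, adjusted p = 0.249). With the replicate block the p16 difference passed (adjusted p = 0.0302, range over 14 alternatives 0.0302 to 0.495). The annotation shares 82 exonic bases of Ptger4 with Ttc33 on the opposite strand, and the library kit does not mark strand.

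Ptgfr (chromosome 3, 151796502 to 151837630, minus strand), the receptor gene for prostaglandin F2 alpha, had 2.23, 0.935 and 2.36 CPM in p21 cells and 2.29, 1.60 and 2.02 CPM in p16 cells, against 1.60, 2.49 and 2.75 CPM in control cells. The groups overlapped and no comparison passed (log2 -0.31 ± 0.333 SE for p21 and -0.21 ± 0.331 SE for p16 relative to control, edgeR adjusted p = 0.491 and 0.757). p21 replicate 2 was the lowest library, and without it the p21 difference was at log2 0.02. Ptger2 (chromosome 14, 44988195 to 45003820, plus strand), another receptor that raises cAMP on binding prostaglandin E2, had 0 to 6 counts per library and gives no fold change.

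Replicate 3 differed from replicates 1 and 2 in the same direction in all 3 groups for most of these genes. The order of replicates 1 and 2 changed between groups for Ptgs2, Pla2g4a, Ptgis and Ptgfr. Replicate 3 was below the mean of replicates 1 and 2 of its group in all 3 groups for Ptgs2 (by log2 differences of -0.31 in p21, -0.55 in p16 and -0.60 in control cells), Pla2g4a (-0.16, -0.18 and -0.14) and Hpgd (-1.05, -0.49 and -0.39). It was above that mean in all 3 groups for Ptgs1 (0.48, 0.35 and 0.30), Ptgis (0.65, 0.50 and 0.39) and Ptger4 (0.29, 0.23 and 0.33). For Ptges the differences were 0.07, 0.06 and -0.02, and for Ptgfr 0.70, 0.08 and 0.45. The sex-linked transcripts move with replicate 3, and their part in these differences was not tested.

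**Figure D4:**
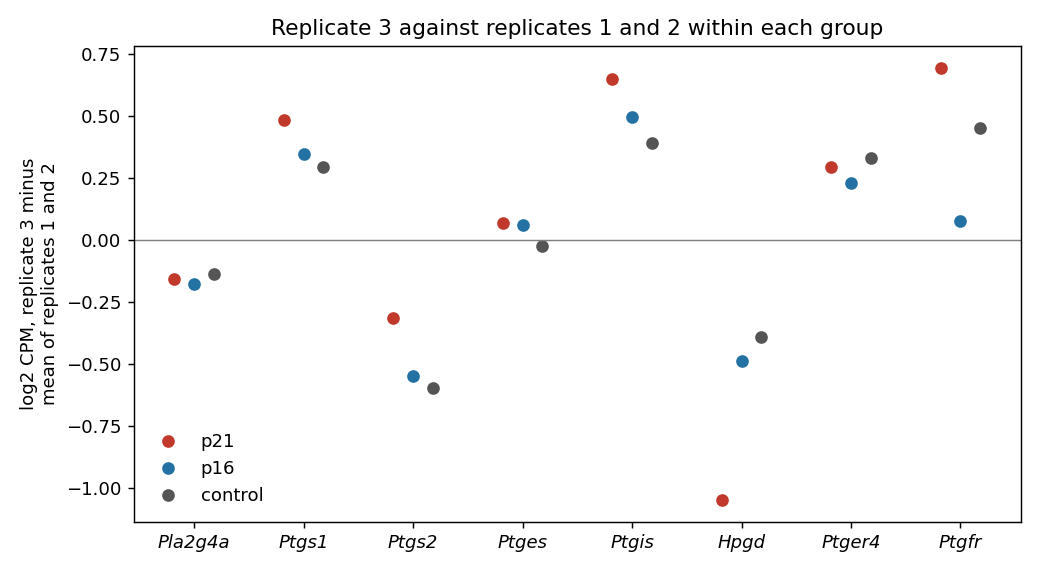
Difference in log2 CPM between replicate 3 and the mean of replicates 1 and 2 (vertical axis) for each of the 8 tested prostaglandin genes, with 1 point per group (p21, p16, control). All 3 points lie below 0 for Pla2g4a, Ptgs2 and Hpgd and above 0 for Ptgs1, Ptgis and Ptger4.

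The genes whose profiles over the 9 libraries were most like those of the cyclooxygenase genes were found among 10445 other genes whose log2 CPM averaged 2 or more. For Ptgs2 they were Apbb1ip, Cubn and Nrp1, with root mean square differences in centred log2 CPM of 0.06, 0.07 and 0.07, while Ptgs2 itself deviated from its mean by a root mean square of 0.33. For Ptgs1, with a deviation of 0.30, they were Plac8, Sgsm1 and Sytl2, at 0.11, 0.11 and 0.12. These are descriptions without a test.

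The wider pathway was read from 7 further lists. Of 17 tested genes for other phospholipases and arachidonate supply, 7 rose and 5 fell in p21 relative to control cells, 2 rose in p16 cells, and 4 were higher and 5 lower in p21 than in p16 cells. Over all genes 19.3% rose and 20.7% fell in p21 cells, 3.57% rose in p16 cells, and 6.19% were higher and 6.64% lower in p21 than in p16 cells. The list's median log2 fold change was 0.13, 0.03 and 0.04 in these 3 comparisons, against -0.01 over all genes in each. Mgll, which encodes the lipase that frees arachidonic acid from a monoglyceride in brain and other tissues, had 49.9, 58.9 and 38.5 CPM in p21 cells and 35.5, 36.5 and 31.4 CPM in p16 cells, against 15.5, 18.3 and 13.6 CPM in control cells. Its groups did not overlap between either tested condition and control, and it rose 3.1-fold in p21 and 2.18-fold in p16 cells (edgeR adjusted p = 5.68e-05 and 0.00667). The calcium-independent phospholipase gene Pla2g6 rose 1.47-fold in p21 cells (adjusted p = 8.98e-05). The desaturase genes of arachidonic acid synthesis fell in p21 cells, Fads2 by 1.46-fold and Fads1 by 1.36-fold (adjusted p = 9.95e-05 and 0.000159). Anxa1, whose product inhibits phospholipase A2, was the most abundant of the list at 1681 ± 96.9 CPM in p21, 1495 ± 69.3 in p16 and 1202 ± 111 in control cells. It was 1.4-fold up in p21 (adjusted p = 0.000761) and 1.24-fold up in p16 cells (0.0329), and the p16 call was lost on leaving out any library except control replicate 1 (adjusted p = 0.0682 to 0.119 without those).

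Of 9 tested other terminal synthases and related reductases, 2 rose and 1 fell in p21 cells. These 3 of 9 compare with 39.9% of all genes called there, a share close to the background. In p16 cells edgeR called 0, against 7.22% of all genes. There 1 had an unadjusted p under 0.05, against 24.6%, and DESeq2 called 1, against 1808 of all 14572 genes. Fam213b, the prostamide and prostaglandin F synthase gene, was 1.52-fold and the carbonyl reductase gene Cbr1 1.31-fold higher in p21 cells (adjusted p = 0.00165 and 0.000223). Ptges3, which encodes the HSP90 co-chaperone also known as cytosolic prostaglandin E synthase, was 1.16-fold lower (126.5 ± 4.69 against 146.4 ± 7.36 CPM, adjusted p = 0.0208), a call lost without control replicate 1 (0.0574), control replicate 2 (0.0671) or p21 replicate 3 (0.0646). Of 7 transport and breakdown genes, 4 rose in p21 cells, against 19.3% of all genes. In p16 cells edgeR called 0, with 3 at an unadjusted p under 0.05 and 2 called by DESeq2, against the same shares of all genes as for the synthases (7.22%, 24.6% and 1808 of 14572). The organic anion transporter gene Slco3a1 was 1.46-fold and the reductase genes Cbr3 and Ptgr2 1.76-fold and 1.26-fold higher in p21 than in control cells (adjusted p = 0.000131, 0.000415 and 0.00168). Slco2a1, the main prostaglandin uptake transporter gene, did not pass (73.8 ± 16.1 CPM in p21 and 69.8 ± 16.6 in p16 cells, against 89.1 ± 15.8 in control cells). Zadh2, a prostaglandin reductase gene, was 1.12-fold higher in p21 cells (adjusted p = 0.0161), a call lost without control replicate 2 (0.0555).

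Of 4 other receptor genes tested, 1 rose in p21 cells, against 19.3% of all genes, a share near the background. In p16 cells edgeR and DESeq2 both called 0, against 1052 and 1808 of all 14572 genes, with 2 at an unadjusted p under 0.05, against 24.6%. Ptger1, a prostaglandin E2 receptor gene linked to calcium, had 20.1, 21.05 and 19.9 CPM in p21 cells and 17.2, 16.2 and 19.8 CPM in p16 cells, against 16.6, 17.9 and 17.3 CPM in control cells (1.18-fold in p21 cells, edgeR adjusted p = 0.0339). The p21 and control libraries did not overlap, but the call was lost on leaving out any of the 6 libraries (adjusted p from 0.0524 to 0.102). Ptgfrn, whose product associates with the receptor encoded by Ptgfr, was at 138.8 ± 1.18 CPM in p21, 131 ± 2.13 in p16 and 143.2 ± 7.54 in control cells and did not pass (p21 relative to control, adjusted p = 0.479).

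Of 12 lipoxygenase and leukotriene genes, 3 rose in p21 cells, against 19.3% of all genes higher and 39.9% called there, and 1 rose in p16 cells, against 3.57% higher. Ephx2, the soluble epoxide hydrolase gene, was 2.14-fold higher in p21 and 1.69-fold higher in p16 than in control cells (34.9 ± 3.04 and 27.6 ± 2.86 against 16.3 ± 1.3 CPM, adjusted p = 3.75e-05 and 0.00523). Alox5, the lipoxygenase gene of leukotriene synthesis and of myeloid cells, was 3.4-fold higher in p21 cells but at 1.21, 1.04 and 1.31 CPM, against 0.378, 0.357 and 0.307 CPM in control cells (adjusted p = 0.000823). The dipeptidase gene Dpep2 (0.36 ± 0.136 against 0.105 ± 0.0374 CPM, adjusted p = 0.0232) lost its call without control replicate 1 (0.0691), control replicate 2 (0.0645), p21 replicate 1 (0.0651) or p21 replicate 3 (0.073). The macrophage marker sums given above were also higher in every p21 library than in any control library. Alox5 had 0.459, 0.822 and 0.494 CPM in p16 libraries, whose marker sums were not above those of control. The part of macrophages in these low values was not tested. Lta4h, the most abundant of the list, was at 88.6 ± 2.77 CPM in p21 and 85.0 ± 1.57 in control cells (adjusted p = 0.307).

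Of 25 genes of the cAMP pathway and CREB-responsive genes, 4 rose and 6 fell in p21 cells, 10 of 25 called in all against 39.9% of all genes, which is the background share. In p16 cells edgeR and DESeq2 both called 0, against 1052 and 1808 of all 14572 genes, with 3 at an unadjusted p under 0.05, against 24.6%. Creb1, which encodes the transcription factor of the cAMP response element, was 1.43-fold lower in p21 than in control cells (adjusted p = 0.000179), its relative Atf1 1.24-fold lower (adjusted p = 0.000733) and the phosphodiesterase gene Pde4d 1.31-fold lower (adjusted p = 0.00421). Gnas, which encodes the stimulatory G protein used by the prostaglandin receptors that raise cAMP, had 1283 ± 20.4 CPM in p21 and 1088 ± 29.6 CPM in control cells, a 1.18-fold rise (adjusted p = 0.00132). Of 18 regulators of Ptgs2 transcription and mRNA decay, 8 fell in p21 cells, against 20.7% of all genes lower there, and 1 fell in p16 cells, against 3.65% (median log2 fold change -0.26 and -0.16). Nfatc1 was 1.57-fold, Nfkb1 1.46-fold and the mRNA decay factor genes Zfp36l2 and Khsrp 1.37-fold and 1.24-fold lower in p21 cells (adjusted p = 0.000686, 0.000563, 0.000277 and 0.00284). Zfp36l2 was also 1.31-fold lower in p16 cells (adjusted p = 0.00745). Jun, the most abundant of the list, was at 172.5 ± 9.42 CPM in p21 and 174.5 ± 13.6 in p16 cells, against 198.7 ± 20.2 in control cells, and did not pass. Ptgs2 itself did not pass in either comparison in the fit without a replicate term. With the replicate block it passed in both (edgeR adjusted p = 0.000526 for p21 and 0.0125 for p16 relative to control).

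**Figure D5:**
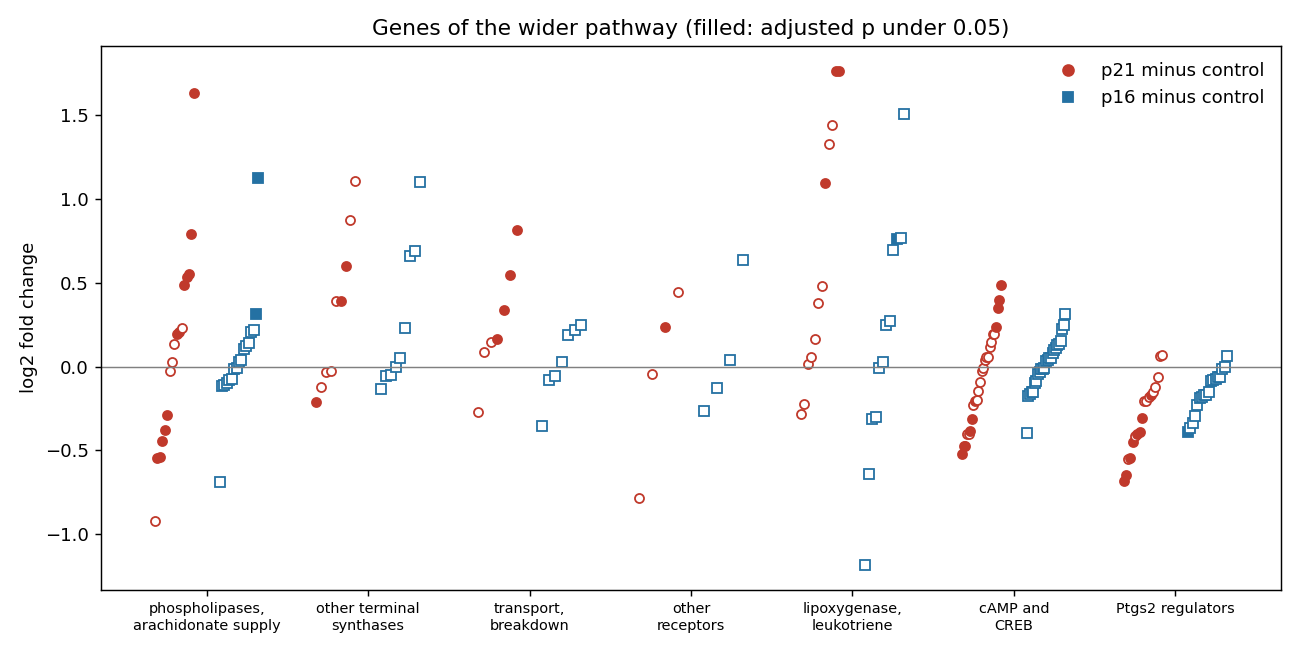
Log2 fold change (vertical axis) of each tested gene of 7 further lists (horizontal axis) for p21 minus control (circles) and p16 minus control (squares), ordered by size within a list and filled where the adjusted p was under 0.05. In p21 cells filled points lie on both sides of 0 for phospholipases and arachidonate supply (7 higher, 5 lower) and below 0 for the 8 called regulators of Ptgs2, and few p16 points are filled.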

How the data were processed

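Values are raw counts of reads, whole numbers for each gene symbol, as deposited by the authors. The tools named in the submitters' processing notes are TopHat2 2.0.14, Bowtie2 2.2.6, featureCounts 1.4.6 and Subread, and the build is mm10. No source used here gives the annotation, the strand setting or the handling of multi-mapping reads. Low counts are mostly even (7251 values of 2, 2367 of 1), so read mates may be counted separately, and counts are not independent molecules.

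Counts were kept by filterByExpr (14572 genes) and tested with edgeR 4.0.16 (R 4.3.3), TMM scaling, the quasi-likelihood F test and 1 mean per group over 9 libraries, with Benjamini-Hochberg adjustment over all tested genes and a threshold of 0.05. Each SE is the log2 difference over the square root of its F statistic. The script was tested on simulated data: for p21 minus control over 14422 genes, 45, 33 and 29 of 50 genes raised 3-fold, 2-fold and 1.5-fold were recovered, and 24 of 50 lowered to 0.667 of their level, with 7 false calls. Exon lengths are from GENCODE M21, and promoters from RefSeq matched 8 of the 9 genes. Replicates of every group differed by more than sampling noise (chi-square per degree of freedom 10.6 to 105). Alternatives were DESeq2 1.42.0, other scaling, filter and replicate terms, and leaving out libraries.

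The members and lists were chosen with earlier results of these data known. Genes of the other lists were named by a rule: up to 4 genes a list past the threshold in any comparison, by lowest adjusted p, and its most abundant tested gene. Replicate numbers come from the titles. Libraries of the same number deviated together, with correlations of 0.25, 0.11 and 0.55 for p16 and control, and of 0.16, 0.29 and 0.48 for p21 and p16, so these were taken as paired on the evidence of the data alone. For p21 and control they correlated at 0.18, 0.025 and 0.49, which does not meet the limit of 0.1 for every pair.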

Additional observations from a re-analysis of the deposited data

Results flagged for a closer look

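None of the 8 tested prostaglandin genes passed the test of the difference between the effects of p21 and p16 (p21 minus p16, edgeR, with 3 at an unadjusted p under 0.05 and 1 called by DESeq2). With the replicate block Ptgis (adjusted p = 0.000249) and Hpgd (0.0292) passed. Over all genes 12.8% passed without the block and 24.0% with it, 28.8% had an unadjusted p under 0.05, and DESeq2 called 2580 of 14572. Of the genes named from the other pathway lists 12 passed, but most of these genes were named because they passed in some comparison, so their number is not a result. Higher in p21 than in p16 cells, as log2 differences, were Alox5 (0.998), Cbr3 (0.568), Pla2g6 (0.412), Fam213b (0.372), Cbr1 (0.34), Ephx2 (0.338), Slco3a1 (0.328) and Gnas (0.14). Lower were Fads2 (-0.434), Nfkb1 (-0.389), Creb1 (-0.369) and Fads1 (-0.33). By edgeR's quasi-likelihood test their adjusted p ran from 0.00213 for Fads2 to 0.0465 for Gnas. Gnas lost its call without any of the 6 libraries (adjusted p 0.0678 to 0.156). Fam213b and Ephx2 lost theirs without any except p21 replicate 3 (0.0948 to 0.146 and 0.0608 to 0.144), and Alox5 without any except p16 replicate 2 (0.0653 to 0.119). Cbr3 lost its call without p21 replicate 1 (0.0522) or p16 replicate 1 (0.0524), and Nfkb1 without p21 replicate 1 (0.0665).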

How the results depend on the processing

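Of the 8 tested prostaglandin genes, 4 were called between p21 and control cells, and 2 with library totals as the only scaling. For p16 and control cells the count was 0, and it was 1 with DESeq2, 4 with the replicate block and 3 with a term for replicate 3. For p21 and p16 cells it was 0, and it was 1 with DESeq2, with no filter, with replicates 1 and 2 only and with the 2 groups alone, and 2 with the replicate block or the replicate 3 term. Leaving out 1 library at a time gave 1 to 5, 0 to 0 and 0 to 1 calls in the 3 comparisons. The first was 1 without control replicate 2 or 3 and 2 without p21 replicate 1 or 2, and the last 1 without p21 replicate 3. Over all genes, 1052 were called between p16 and control cells, against 1808 with DESeq2, 2473 with the replicate block, 2645 with the replicate 3 term, 593 with replicates 1 and 2 only and 555 with the 2 groups alone. Between p21 and p16 cells 1870 were called, against 3496 with the replicate block and 3622 with the replicate 3 term. Without 1 library these counts ran from 222 (p16 replicate 2) to 873 and from 600 (p21 replicate 1) to 1790. They were 284, 425 and 375 without p16 replicate 1, p16 replicate 3 and control replicate 2, and 922, 789, 875 and 959 without p21 replicate 2 and p16 replicates 1, 2 and 3. For p21 and control cells, where 5820 were called, they ran from 4224 to 5788. The cause was not tested.

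For p21 and control cells the numbers were not taken as pairs, since the correlation of the replicates 2 was 0.025, under the limit of 0.1. Yet pairing p16 by number with both control and p21 would also pair p21 with control. This choice is therefore not coherent across the comparisons, and replicate 3 had the highest Xist in every group. Both p21 replicate 2 (0.36) and p16 replicate 2 (0.3) correlated best with control replicate 1, so not every library was closest to its own number in either comparison. With the replicate block 6 of 8 prostaglandin genes and 7241 of all genes were called there, Ptgs1 (adjusted p = 0.000911) and Ptgs2 (0.000526) among them.

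Signs changed for differences that did not pass. Ptgis between p16 and control cells was at log2 -0.0133 with replicates 1 and 2 only and from -0.151 to 0.174 without 1 library. Without 1 library Hpgd there ran from -0.159 to 0.378, Ptgfr from -0.52 to 0.0153 for p21 against control and from -0.315 to 0.22 for p21 against p16, and Ptgs2 from -0.0538 to 0.217 for p21 against p16. The log2 ratio of Ptgs2 over Ptgs1 ran from -0.155 to 0.409 for p21 and from -0.462 to 0.134 for p16 against control, and that of Ptges over Ptgis from -0.115 to 0.225 for p16. Leaving out libraries for the ratios was chosen after seeing the data. Low counts limit what can be said of Hpgd, Ptgfr and Ptger2.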
